A study of Homo sapiens with 18 samples.

Results

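RNA of HepG2 cells given ethanol was set against RNA of HepG2 cells given DMSO, the 2 solvents that carried the compounds in a study of ligands of the nuclear receptor LRH-1. The comparison rests on 3 ethanol libraries and 3 DMSO libraries, 6 of the 18 libraries in the series, chosen by their treatment labels. The deposited table has 35238 gene rows, 24982 of them with a count in at least 1 library, and 14797 genes passed the filter on low counts and were tested. Every library came from HepG2, a human liver line derived from a hepatoblastoma, and every group was treated in medium with charcoal-stripped serum. The vehicle groups received ethanol at 0.1% and DMSO at 0.1%. The other groups, also with 3 libraries each, received the phospholipid DLPC at 100 µM or, at 10 µM, a small molecule (6N-10CA, 10CA or 6N), and entered only the estimate of spread and a few side-by-side values. No untreated group was among the libraries, so that an effect of ethanol and an opposite effect of DMSO cannot be told apart. The labels give neither the length of treatment nor the vehicle that belongs to each compound.

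Hepatocytes oxidise ethanol to acetaldehyde through alcohol dehydrogenases, with catalase and the cytochrome CYP2E1 as further routes, and aldehyde dehydrogenases then make acetate, which acyl-CoA synthetases activate. DMSO is a polar sulfoxide that, at much higher concentrations than those of a vehicle, is used to keep liver lines differentiated. Plasma proteins such as albumin, apolipoproteins and the fibrinogen chains make up much of what hepatocyte-derived cells transcribe.

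Total counts were 31394044, 32587721 and 28135967 in the ethanol libraries, and 34579945, 30327317 and 30573152 in the DMSO libraries. With these depths, 3 counts correspond to 0.0868 to 0.107 CPM (a gene's counts scaled to a common library size). Genes with a count numbered 18924 ± 219 in ethanol libraries and 19017 ± 127 in DMSO libraries (SD, n = 3 each), and mitochondrial transcripts took 0.463 ± 0.048% and 0.450 ± 0.020% of counts. Over 10 such library measures an exact permutation test between the vehicles gave two-sided p from 0.5 to 1, where 0.1 is the smallest p that 3 against 3 allows. The 13 hepatocyte markers were all detected and summed to 87139 TPM (counts divided by exon length, then scaled to the same total in each library) in ethanol libraries, range 80581 to 90420, and to 86496 TPM in DMSO libraries, range 84271 to 88086. Of 19 markers of stromal, endothelial, blood and bile duct cells, 9 reached 1 TPM, led by KRT19 and SOX9 of the bile duct lineage. Their sum was 1431 TPM in ethanol libraries, range 1395 to 1498, and 1429 TPM in DMSO libraries, range 1374 to 1470. The defining markers KDR of endothelium, CD3E of T cells and HBB of red cells had no count in any of the 6 libraries.

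The 2 vehicles gave nearly the same transcriptome. By edgeR's quasi-likelihood test with the replicate number as a block and Benjamini-Hochberg adjustment, 18 genes passed an adjusted p of 0.05, which is 0.122% of the tested genes. In ethanol cells 12 of them fell (0.0811%), among them the fibrinogen chains FGA and FGG, the acetyltransferase subunit gene TADA2B, the convertase gene PCSK6 and the creatine transporter gene SLC6A8. The 6 that rose (0.0405%) were C10orf10, LEAP2, TNFAIP3, UNC93A, CP and BMP4. The log2 fold changes of the called genes ran from -0.88 to 0.43. All 18 had the same direction in 3 of 3 replicate pairs, which selection by a test on these same pairs favours. Without the block 0 genes passed (0% of tested genes, smallest adjusted p 0.3668), and unadjusted p was under 0.05 for 479 genes, against 958 with the block (6.47%). With the block but only the 6 vehicle libraries in the fit, none of the 18 genes passed. The smallest adjusted p among them by edgeR was 0.09917, for both FGA and LEAP2. In bulk libraries, a change of RNA per cell and a change in the share of cells that hold it cannot be told apart.

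Over all 18 libraries 10686 of the tested genes averaged at least 5 CPM, and over these the 95% interval of a log2 fold change had a median half-width of 0.12. The interval lay wholly within 0.5 log2 of no change for 98.7% of these genes (10543), and within a 1.2-fold change for 82.7% (8835). Without the block these shares were 97.4% and 72.0%. The median log2 fold change was 0.00, and the values at percentile 1 and percentile 99 were -0.22 and 0.22. Across the 10686 genes the ethanol minus DMSO differences correlated little between replicate pairs. The r was 0.13 for pairs 1 and 2, 0.07 for pairs 1 and 3, and 0.01 for pairs 2 and 3. Only 14 of the 10686 genes differed by more than 1.5-fold, and 1, RP13-1032I1.10, by more than 2-fold. That gene averaged 0.714 CPM in ethanol libraries and 3.54 CPM in DMSO libraries and reached the mean of 5 CPM only through the other groups. It had 0.193, 0.152 and 1.80 CPM in ethanol libraries and 1.85, 0.918 and 7.85 CPM in DMSO libraries, so the groups overlap; its adjusted p was 0.799 by edgeR.

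**Figure D1:**
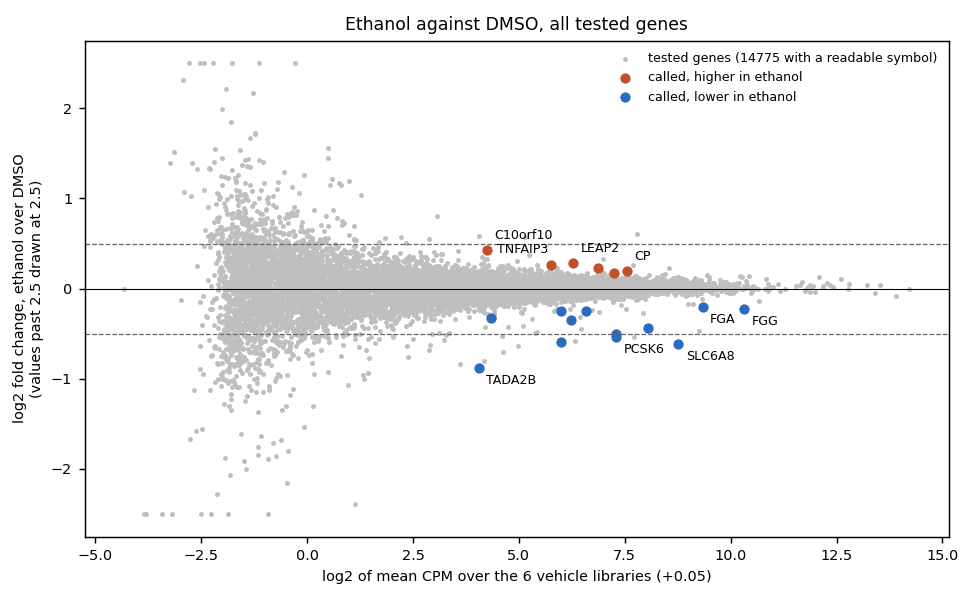
Log2 fold change of ethanol over DMSO (y axis) against the log2 of the mean CPM over the 6 vehicle libraries (x axis), with 1 point per tested gene that has a readable symbol, called genes in orange where higher in ethanol and blue where lower, and dashed lines at 0.5 log2 to either side of no change. The points close around 0 as the level rises, and among called genes TADA2B, SLC6A8, GNA11 and PCSK6 lie below the lower dashed line.

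Fibrinogen is a plasma protein of paired alpha, beta and gamma chains that thrombin turns into fibrin, and its 3 genes sit next to each other on chromosome 4. FGA (GRCh38 chr4:154583126-154590766), the alpha chain, stood at 617, 599 and 588 CPM in ethanol libraries and at 692, 703 and 684 CPM in DMSO libraries. FGG (chr4:154604134-154612967), the gamma chain, stood at 1200, 1156 and 1166 CPM in ethanol libraries and at 1333, 1467 and 1322 CPM in DMSO libraries. Every ethanol library lay below every DMSO library for both genes, and for both the vehicle means lay further apart than the replicates of a vehicle. FGA fell by 0.21 on the log2 scale (SE 0.030, adjusted p 0.006513 by edgeR) and FGG fell by 0.23 (SE 0.038, adjusted p 0.03249). FGB, the beta chain, had 616, 612 and 610 CPM in ethanol libraries and 670, 676 and 646 CPM in DMSO libraries. Its groups do not overlap either, but its value of -0.12 on the log2 scale (SE 0.033) did not pass edgeR's test (adjusted p 0.3078). FGA was 1 of the 2 genes with the smallest adjusted p, and its unadjusted p without the block was the smallest of all tested genes, with an adjusted p of 0.3668.

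The starts of the fibrinogen genes are shown because these neighbours had values on the same side, each as the RefSeq window (GRCh38.p14) from 250 bases before to 50 bases after the annotated start, read along the gene's strand. The windows are chr4:154590693-154590992 on the minus strand for FGA, chr4:154562730-154563029 on the plus strand for the first of 2 annotated FGB starts, and chr4:154612607-154612906 on the minus strand for FGG. Capitals mark CTGGGA or its reverse complement, the core letters of the interleukin 6 response element known from fibrinogen promoters. 
FGA: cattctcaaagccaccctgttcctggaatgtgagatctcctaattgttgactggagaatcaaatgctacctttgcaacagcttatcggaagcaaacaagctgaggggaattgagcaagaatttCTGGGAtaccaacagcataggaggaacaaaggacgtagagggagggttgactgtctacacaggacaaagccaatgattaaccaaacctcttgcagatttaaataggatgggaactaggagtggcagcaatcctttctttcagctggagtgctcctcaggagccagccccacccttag
FGB: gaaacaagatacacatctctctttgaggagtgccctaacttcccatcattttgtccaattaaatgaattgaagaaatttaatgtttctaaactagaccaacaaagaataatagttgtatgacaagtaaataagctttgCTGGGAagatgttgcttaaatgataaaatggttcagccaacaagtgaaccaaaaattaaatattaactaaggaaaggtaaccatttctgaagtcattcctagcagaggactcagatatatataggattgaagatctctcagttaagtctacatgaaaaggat
FGG: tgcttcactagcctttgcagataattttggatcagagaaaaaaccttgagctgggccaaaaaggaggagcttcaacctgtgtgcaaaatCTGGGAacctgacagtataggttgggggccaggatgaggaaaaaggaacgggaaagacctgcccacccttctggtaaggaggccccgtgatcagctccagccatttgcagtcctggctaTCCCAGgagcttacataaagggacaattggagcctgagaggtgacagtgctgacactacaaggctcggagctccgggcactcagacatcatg
The motif begins 127 bases before the start in FGA and 112 bases before it in FGB, and in FGG it is found 161 bases and, on the opposite strand, 42 bases before the start. On either strand it is present in 33.3% of the 35116 RefSeq windows of this length, so its presence in all 3 is a description of these letters only.

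Of 20 tested genes in a list on fibrinogen and coagulation, 2 fell and none rose, against 0.0811% and 0.0405% of all tested genes. The median log2 fold change was 0.04 over the list, against 0.00 over all tested genes. Prothrombin (F2) stood at 973 ± 46.0 TPM in ethanol libraries and 944 ± 52.8 TPM in DMSO libraries (SD, n = 3 each), and antithrombin (SERPINC1) at 633 ± 31.2 and 612 ± 9.83 TPM. Neither passed the test.

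Fallen genes other than the fibrinogen chains included some with larger differences. TADA2B, an adaptor subunit of the SAGA histone acetyltransferase complex (chr4:7041899-7057952), had 9.93, 10.2 and 15.2 CPM in ethanol libraries and 23.0, 24.7 and 16.9 CPM in DMSO libraries. The libraries numbered 3 stood closer together than the other pairs, and the groups do not overlap. TADA2B fell by 0.88 (SE 0.16, adjusted p 0.03753 by edgeR), the furthest of the called genes. PCSK6, a proprotein convertase that activates secreted growth factors by cutting them (chr15:101297142-101525202), had 123, 115 and 146 CPM in ethanol libraries and 202, 199 and 156 CPM in DMSO libraries. It fell by 0.53 (SE 0.097, adjusted p 0.03753). SLC6A8, which carries creatine into cells (chrX:153688099-153696593), had 327, 285 and 420 CPM in ethanol libraries and 607, 514 and 459 CPM in DMSO libraries. The high ethanol library and the low DMSO library were again those numbered 3, and SLC6A8 fell by 0.62 (SE 0.12, adjusted p 0.03753 by edgeR).

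GNA11, an alpha subunit of the Gq class of G proteins (chr19:3094410-3124004), had 45.9, 46.4 and 58.7 CPM in ethanol libraries and 81.5, 84.7 and 62.2 CPM in DMSO libraries. ZNRF3, a ubiquitin ligase that removes Frizzled receptors and so dampens WNT signalling (chr22:28883592-29057487), had 115, 124 and 154 CPM in ethanol libraries and 200, 185 and 168 CPM in DMSO libraries. GNA11 fell by 0.60 (SE 0.11) and ZNRF3 by 0.50 (SE 0.096), both at an adjusted p of 0.03753 by edgeR, and in neither do the groups overlap. FOXK2, a forkhead transcription factor (chr17:82519713-82644662), averaged 65.9 ± 7.97 CPM in ethanol libraries and 83.3 ± 7.19 CPM in DMSO libraries. CCNY, a membrane-bound cyclin that partners CDK14 (chr10:35247025-35572669), averaged 88.2 ± 8.52 CPM in ethanol libraries and 105 ± 2.04 CPM in DMSO libraries (SD, n = 3 each). FOXK2 fell by 0.34 (SE 0.066) and CCNY by 0.25 (SE 0.049), with the same adjusted p of 0.03753.

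These 7 fallen genes were grouped after their values were seen, by a pair 3 difference well under those of pairs 1 and 2. Their uneven pattern over the replicate pairs is thus part of the choice. The log2 difference of ethanol minus DMSO ran from -1.17 to -0.26 in pair 1, from -1.23 to -0.41 in pair 2 and from -0.15 to -0.06 in pair 3. In 7 of the 7, ethanol 3 was the highest ethanol library and DMSO 3 the lowest DMSO library. The choice by pair differences favours this, so the count is a description only. In DLPC cells every library of these genes lay above every ethanol library, and the log2 difference of DLPC minus DMSO was between -0.06 and 0.17. None of the 7 was called for DLPC against DMSO, where 11.3% of tested genes were; that comparison shares its DMSO libraries with the present one. In cells given 6N-10CA the mean of each lay below its DMSO mean, as in TADA2B with 12.9, 13.3 and 16.2 CPM, against 23.0, 24.7 and 16.9 CPM in DMSO libraries. A mean below that of DMSO was also seen with 6N for each but GNA11, and with 10CA for each but SLC6A8 and CCNY. The 7 genes were called on low ethanol and high DMSO values. That choice favours other groups lying above ethanol and below DMSO, so these positions are a description only. Among 6N, 10CA and 6N-10CA, the 6N-10CA mean was the lowest in each of the 7. Their median GC content was 55.7%, against 49.0% over tested genes with a value. With offsets by GC content all 7 were still called; the part of the libraries numbered 3 was not tested beyond leaving them out.

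FGA, FGG and CYHR1, the fallen genes reported here that were left outside that group, were by the same choice more even. CYHR1 averaged 57.9 ± 2.91 CPM in ethanol libraries and 68.8 ± 1.89 CPM in DMSO libraries (SD, n = 3 each), and fell by 0.25 (SE 0.046, adjusted p 0.03753 by edgeR). Over the 3 genes the pair differences ran from -0.26 to -0.15 in pair 1, from -0.34 to -0.23 in pair 2 and from -0.22 to -0.18 in pair 3. In none of the 12 fallen genes do the vehicle groups overlap, while 4.19% of all tested genes were lower in ethanol without overlap. Selection by a test on these same libraries favours a lack of overlap, so this count is a description only.

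**Figure D2:**
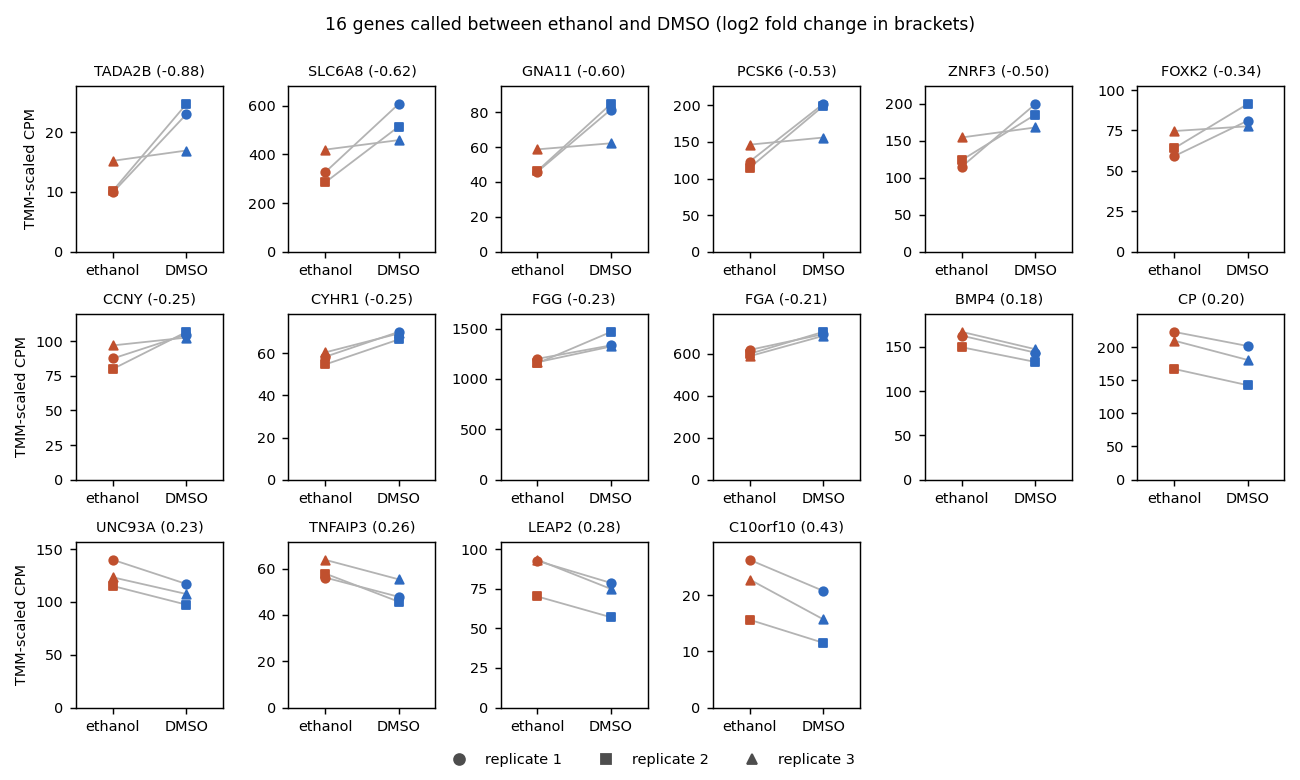
TMM-scaled CPM (y axis, from 0) of 16 of the 18 called genes in the ethanol (orange) and DMSO (blue) libraries, with lines joining libraries of the same replicate number and the log2 fold change in brackets. The lines of replicate 3 are the flattest in TADA2B, SLC6A8, GNA11 and PCSK6, whereas in FGA and in the rising genes the 3 lines run nearly parallel.

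The genes that rose did so by small and even steps within pairs, and in 4 of the 6 the vehicle groups overlap. The test with the block favours even steps where the change is small, so the evenness is a description only. C10orf10 (chr10:44970981-44978810), now named DEPP1 and first described as a decidual protein induced by progesterone, had 26.3, 15.6 and 22.8 CPM in ethanol libraries and 20.8, 11.5 and 15.7 CPM in DMSO libraries. The groups overlap, yet each ethanol library lay above the DMSO library of its number. It rose by 0.43 (SE 0.062, adjusted p 0.006513 by edgeR). LEAP2, a liver peptide that blocks the ghrelin receptor (chr5:132872322-132875046), had 92.6, 70.2 and 93.3 CPM in ethanol libraries and 78.7, 57.1 and 74.9 CPM in DMSO libraries, and rose by 0.28 (SE 0.054, adjusted p 0.03753). CP, ceruloplasmin, the copper-carrying ferroxidase of plasma (chr3:149162410-149222055), had 223, 167 and 210 CPM in ethanol libraries and 202, 142 and 181 CPM in DMSO libraries, and rose by 0.20 (SE 0.036, adjusted p 0.03753 by edgeR). UNC93A (chr6:167271169-167316019) averaged 126 ± 12.6 CPM in ethanol libraries and 107 ± 9.80 CPM in DMSO libraries (SD, n = 3 each), and rose by 0.23 (SE 0.039, adjusted p 0.03249 by edgeR). In each of these 4 genes replicate 2 was the lowest of its vehicle.

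BMP4 and TNFAIP3 rose without overlap of the groups, where 4.06% of all tested genes were higher in ethanol in that way. The test that called them used these same libraries and favours a lack of overlap. BMP4, a secreted growth factor that signals through SMAD proteins (chr14:53949736-53958761), had 163, 150 and 167 CPM in ethanol libraries and 144, 133 and 147 CPM in DMSO libraries, and rose by 0.18 (SE 0.031, adjusted p 0.03745 by edgeR). TNFAIP3, also called A20, is a ubiquitin-editing enzyme that restrains NF-kB signalling and is itself an NF-kB target (chr6:137867188-137883312). It had 56.1, 57.8 and 63.8 CPM in ethanol libraries and 47.8, 45.7 and 55.3 CPM in DMSO libraries. The lowest ethanol library thus stood just above the highest DMSO library, and TNFAIP3 rose by 0.26 (SE 0.049, adjusted p 0.03753 by edgeR). Its RefSeq window (GRCh38.p14, chr6:137867009-137867308, plus strand, 250 bases before to 50 after the start) is shown because NF-kB acts through known sites there, with capitals on matches to GGNNTTTCC, letters common to many NF-kB sites, or its reverse complement.
TNFAIP3: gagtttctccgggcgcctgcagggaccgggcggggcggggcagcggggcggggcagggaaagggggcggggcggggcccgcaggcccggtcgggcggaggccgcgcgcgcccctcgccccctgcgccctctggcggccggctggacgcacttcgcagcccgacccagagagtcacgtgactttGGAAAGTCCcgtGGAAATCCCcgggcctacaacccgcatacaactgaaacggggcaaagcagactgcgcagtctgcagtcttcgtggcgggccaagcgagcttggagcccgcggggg
The 2 matches begin 67 and 55 bases before the start, both as the reverse complement, and 6.26% of RefSeq windows hold a match on either strand. Other members of the list on inflammatory signalling did not pass the test. NFKBIA, the inhibitor that holds NF-kB in the cytoplasm, had 89.8, 94.4 and 93.7 CPM in ethanol libraries and 89.3, 99.0 and 90.2 CPM in DMSO libraries, with a log2 fold change of 0.00. The adhesion molecule ICAM1 stood at 107 CPM in ethanol libraries and 101 CPM in DMSO libraries (adjusted p 0.7468 by edgeR). Of 14 tested genes in that list, 1 rose and none fell, against 0.0405% and 0.0811% of all tested genes. The list median was 0.05.

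Beside DLPC, which shares the DMSO libraries, C10orf10 stood at 0.43 for ethanol and 0.32 for DLPC on the log2 scale against DMSO. For ethanol and for DLPC, UNC93A stood at 0.23 and 0.45, CP at 0.20 and 0.44, LEAP2 at 0.28 and 0.46, BMP4 at 0.18 and 0.11, and TNFAIP3 at 0.26 and 0.00. FGA stood at -0.21 for ethanol and -0.11 for DLPC, and FGG at -0.23 and -0.24. FGG had 1200, 1156 and 1166 CPM in ethanol libraries, 1151, 1171 and 1170 CPM in DLPC libraries, and 1333, 1467 and 1322 CPM in DMSO libraries, with no DLPC or ethanol library reaching the lowest DMSO library.

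**Figure D3:**
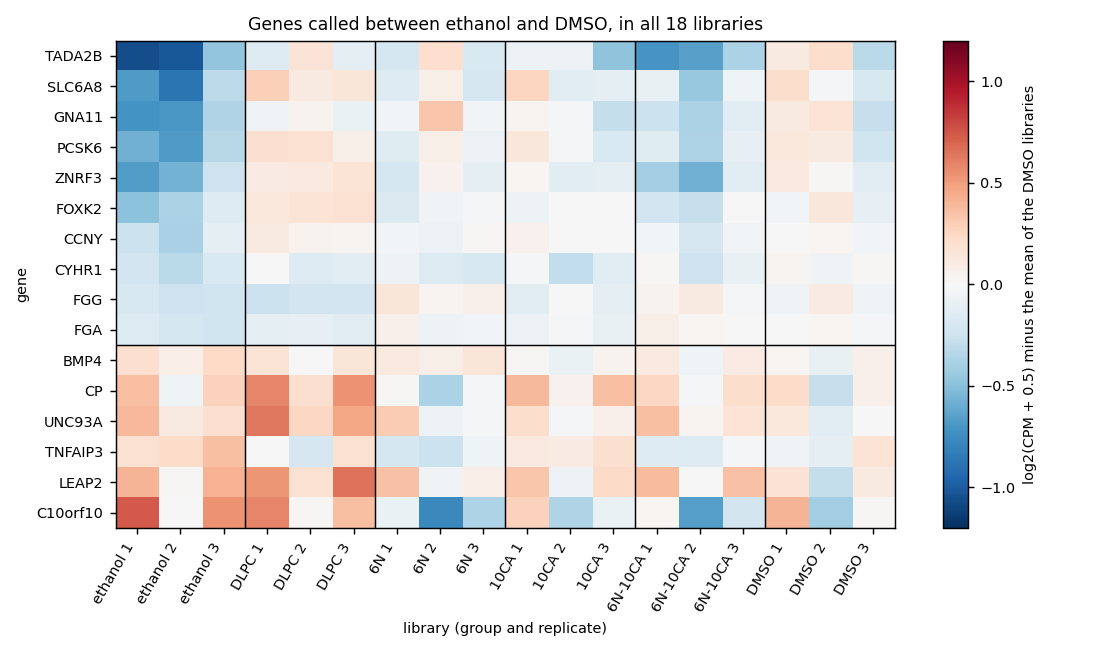
Log2(CPM + 0.5) minus the mean of the DMSO libraries (colour) for 16 of the 18 called genes (rows, fallen above the line, risen below) in all 18 libraries (columns, by group, with ethanol leftmost and DMSO rightmost). Blue in the upper rows is deepest in ethanol 1 and ethanol 2, is paler in ethanol 3, and recurs for several of these genes in the 6N-10CA libraries; FGA and FGG are pale blue in the ethanol and DLPC columns.

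The call count depended on single libraries. It was 0 without ethanol 1, 1 (C10orf10) without ethanol 2 and 33 without ethanol 3. It was 5 without DMSO 1, namely C10orf10, CP, FGA, FGG and GLUD1, then 0 without DMSO 2 and 24 without DMSO 3. Of the main 18 genes, 13 were among the 33 and 14 among the 24. Leaving out the ethanol and DMSO libraries of replicate 3 together, a choice made after seeing the data, gave 37 genes, 3 higher and 34 lower, with 13 of the 18 among them; leaving out replicate 1 gave 2, C10orf10 and FGA, and replicate 2 gave 0. C10orf10 and FGA were called in 13 and 12 of the 19 fits run, the most of any gene. The 19 fits include the main fit and share libraries, so these counts are not independent repeats.

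No gene of ethanol handling was called. Of 18 listed genes of ethanol and aldehyde oxidation, 15 were tested and none passed (0.122% of all tested genes did), with a median log2 fold change of 0.02 and a range of -0.11 to 0.91. ALDH1A1, a cytosolic aldehyde dehydrogenase, had 474, 515 and 497 CPM in ethanol libraries and 455, 483 and 438 CPM in DMSO libraries, a difference of 0.11 on the log2 scale (SE 0.029) that did not pass edgeR's test (adjusted p 0.2085). ADH4, a class II alcohol dehydrogenase, had 125, 123 and 126 CPM in ethanol libraries and 123, 112 and 116 CPM in DMSO libraries (log2 fold change 0.10, adjusted p 0.7707 by edgeR). In both genes the groups overlap. The widest differences were in scarce genes, the class I alcohol dehydrogenases ADH1A and ADH1B. ADH1A had 0.643, 0.882 and 0.682 CPM in ethanol libraries and 0.492, 0.492 and 0.360 CPM in DMSO libraries, without overlap (log2 fold change 0.74, 95% interval -0.07 to 1.56, adjusted p 0.7935 by edgeR). ADH1B had 0.578, 0.183 and 0.647 CPM in ethanol libraries and 0.232, 0.197 and 0.294 CPM in DMSO libraries, with overlap (0.91, 95% interval -0.30 to 2.15, adjusted p 0.851). CYP2E1 had 17 counts over the 3 ethanol libraries and 27 over the 3 DMSO libraries and was not tested. None of 12 tested genes of sulfoxide and sulfur metabolism, which include the methionine sulfoxide reductases, was called, and their median was -0.01.

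Over 36 lists with 605 distinct genes, chosen with earlier results of these data in view, 547 genes were tested and 7 were called, or 1.28%, against 0.122% of all tested genes. Since the lists were chosen with those results in view, the difference between these shares is not a result. CP and TNFAIP3 rose, and FGA, FGG, TADA2B, PCSK6 and ZNRF3 fell. In 30 lists no member was called. List medians ran from -0.07 for metallothioneins and zinc to 0.13 for immediate early genes, with 0.00 over all tested genes.

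No member of the lists of ATF4 targets and heat shock genes was called, against 0.122% of all tested genes. Of 17 tested targets of ATF4, the transcription factor of the amino acid response, 6 were higher in ethanol at an unadjusted p under 0.05 (3.49% of all tested genes were) and none was lower (2.99%), with a median of 0.10. SLC7A11, the cystine transporter, had 18.2, 23.8 and 19.9 CPM in ethanol libraries and 16.2, 15.7 and 17.0 CPM in DMSO libraries (log2 fold change 0.33, adjusted p 0.2085 by edgeR). MTHFD2, a mitochondrial folate enzyme, had 128, 130 and 142 CPM in ethanol libraries and 123, 115 and 124 CPM in DMSO libraries (0.14, adjusted p 0.1816). The groups do not overlap in either gene. Of 14 tested heat shock genes, 5 were lower in ethanol at an unadjusted p under 0.05 and none was higher, with a median of -0.04. Without overlap of the groups none of the 14 was lower and 1 was higher, against 4.19% and 4.06% of all tested genes. HSPA1A, an inducible HSP70 chaperone, ran from 49.7 to 62.1 CPM in ethanol libraries and from 52.6 to 70.1 CPM in DMSO libraries (-0.22, adjusted p 0.6203 by edgeR). It overlaps between vehicles, and reads may be split with its near-identical copy HSPA1B. Other stress lists had fewer members on that unadjusted scale: of 21 tested genes of the unfolded protein response 0 were higher and 1 lower, of 17 targets of NRF2 1 was higher and 0 lower, and of 14 targets of p53 1 was higher and 1 lower.

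In the lists of chromatin complexes no gene but TADA2B was called. Of 19 tested SAGA subunits TADA2B fell, and 4, TADA2B included, were lower at an unadjusted p under 0.05, against 0.0811% of all tested genes called lower and 2.99% lower at that unadjusted p. TAF12 had 14.5, 15.2 and 14.4 CPM in ethanol libraries and 15.9, 16.8 and 16.1 CPM in DMSO libraries (log2 fold change -0.14, adjusted p 0.6669 by edgeR). BRD1, a scaffold of MYST acetyltransferases, had 14.3, 17.0 and 24.9 CPM in ethanol libraries and 33.0, 34.4 and 23.4 CPM in DMSO libraries (-0.70, adjusted p 0.09475). CARM1, an arginine methyltransferase of histones and coactivators, had 21.2, 19.8 and 33.0 CPM in ethanol libraries and 44.5, 40.4 and 29.5 CPM in DMSO libraries (-0.64, adjusted p 0.2442). In both genes ethanol 3 stood above DMSO 3, against the other pairs. Of 13 tested WNT targets only ZNRF3 was called, lower in ethanol, against 0.0811% of all tested genes called lower. Its close relation RNF43 stood at 82.5 ± 6.69 TPM in ethanol libraries and 81.3 ± 7.13 TPM in DMSO libraries. AXIN2 stood at 77.5 ± 5.80 and 71.8 ± 5.10 TPM (SD, n = 3 each).

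**Figure D4:**
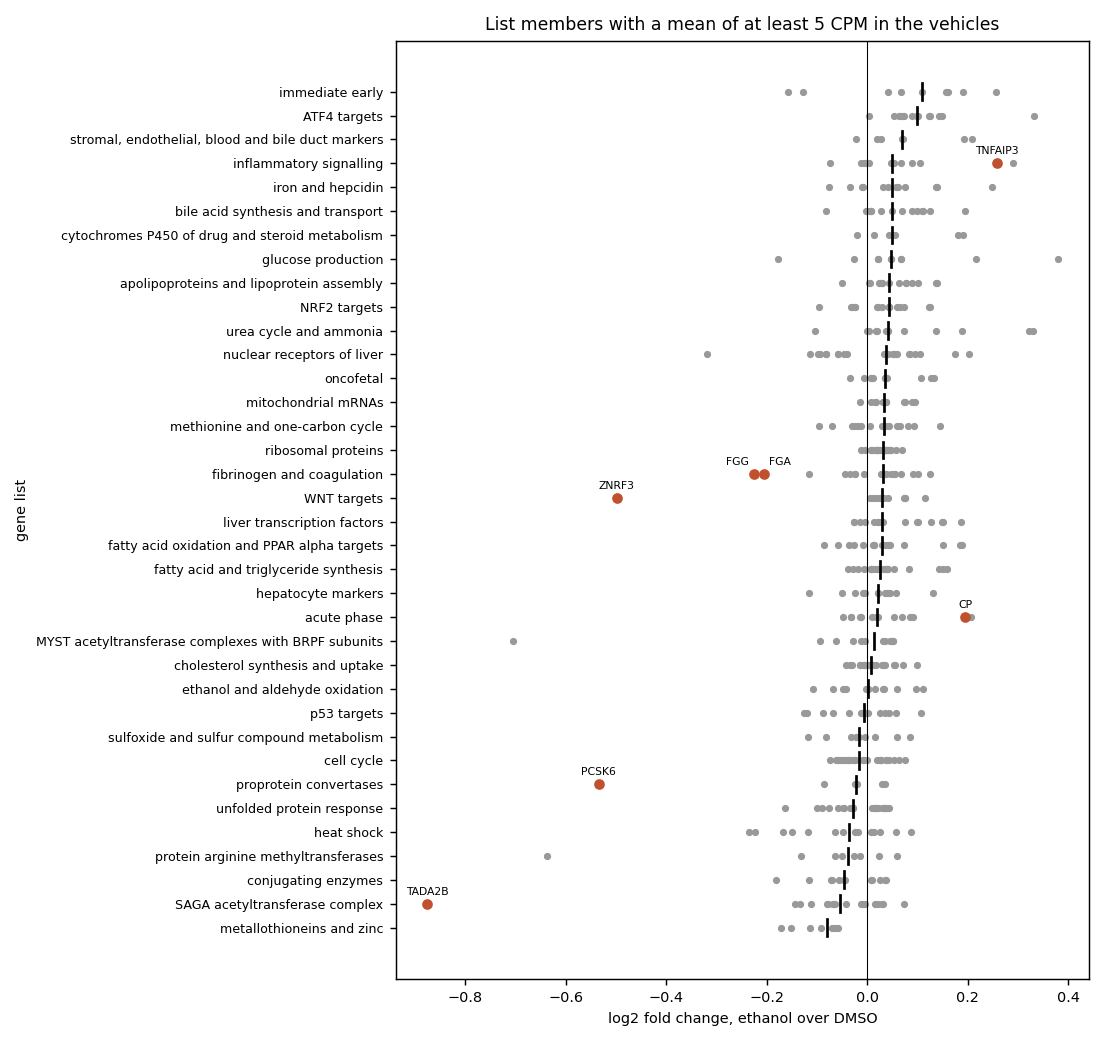
Log2 fold change of ethanol over DMSO (x axis) of list members with a mean of at least 5 CPM, by gene list (y axis), with called members in orange and named, and a bar at each list's median over the members shown. All members shown but TADA2B, BRD1, CARM1 and PCSK6 lie within 0.5 of no change.

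The expression that both vehicles share was that of a hepatocyte-derived tumour line. Levels per length could be computed for 27912 genes, which hold 99.3% of the counts of the vehicle libraries. At least 1 TPM was reached in all 3 libraries by 12021 genes with ethanol and 12018 with DMSO, 11876 of them in all 6. At least 1000 TPM was reached by 94 genes in each vehicle, 91 of them in all 6 libraries. Among the 11876 genes, mean TPM differed by less than 1.2-fold for 97.1% and by less than 1.5-fold for 99.7%. No gene had at least 10 counts in every library of a vehicle and none in the other. Protein-coding genes held 98.9% of TPM with ethanol and 98.8% with DMSO.

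The same 20 genes led both vehicles and held 21.0 ± 0.61% of TPM in ethanol libraries and 21.1 ± 0.25% in DMSO libraries (SD, n = 3 each). FTL, the ferritin light chain that stores iron, was highest by merged exon length, at 58612 ± 2181 TPM in ethanol libraries and 62009 ± 5789 TPM in DMSO libraries. Apolipoproteins of high density lipoprotein followed, with APOA1 at 26018 ± 1425 TPM in ethanol libraries and 26962 ± 741 TPM in DMSO libraries, and APOA2 at 14068 ± 993 and 13665 ± 663 TPM. The fetal plasma protein AFP, at 12764 ± 807 TPM in ethanol libraries and 12458 ± 87.5 TPM in DMSO libraries, stood close to albumin (ALB), at 10023 ± 885 and 9700 ± 171 TPM. AFP was above ALB in each of the 6 libraries. The others in order were APOH, GAPDH, ACTB, FTH1, AHSG, MIF, AMBP, AGT, HIST1H4C, APOE, APOC3, ALDOA, GPC3, MTRNR2L12 and SERPINA1. Below APOH, neighbours in this order often differ by less than their SD. Reads of FTL, FTH1, GAPDH, ACTB, HIST1H4C and MTRNR2L12 may be shared with near-identical copies, and dividing by the median transcript length in place of the merged exons kept 13 of the 20. By that scale the iron carrier TF, at 29228 TPM over the 6 libraries and not among the 20 by merged exons, stood above FTL, at 16441 TPM, and AFP, at 16168 TPM, stood above APOA1, at 10940 TPM.

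Oncofetal genes, which the fetal liver and liver tumours express, were high besides AFP. GPC3, a cell surface proteoglycan, stood at 4481 ± 302 TPM in ethanol libraries and 4502 ± 114 TPM in DMSO libraries, and the growth factor gene IGF2 at 939 ± 109 and 940 ± 148 TPM. DLK1 stood at 210 ± 10.7 TPM in ethanol libraries and 192 ± 8.13 TPM in DMSO libraries, while the stem cell factor SALL4 was near 0, at 0.180 ± 0.11 and 0.160 ± 0.10 TPM (SD, n = 3 each).

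Transcription factors of hepatocytes were present at middling levels. CEBPA was the highest of 18 listed, at 325 ± 40.2 TPM in ethanol libraries and 320 ± 29.6 TPM in DMSO libraries. FOXA2 and FOXA1, which did not differ beyond their SD, stood at 118 ± 0.62 and 118 ± 7.93 TPM in ethanol libraries and at 119 ± 12.2 and 119 ± 6.20 TPM in DMSO libraries. HNF4A stood at 97.7 ± 5.76 TPM in ethanol libraries and 96.4 ± 5.56 TPM in DMSO libraries. Among 28 nuclear receptors, the repressor NR2F6 was highest, at 383 ± 16.3 TPM in ethanol libraries and 396 ± 21.6 TPM in DMSO libraries. NR0B2, the SHP corepressor, followed at 234 ± 41.8 and 248 ± 37.5 TPM, and the bile acid receptor NR1H4 stood at 43.3 ± 2.83 and 41.8 ± 2.45 TPM. NR5A2, the gene of LRH-1 itself, was low, at 1.82 ± 0.46 TPM in ethanol libraries and 1.78 ± 0.31 TPM in DMSO libraries (SD, n = 3 each), and its log2 fold change was 0.02 (adjusted p 0.9939 by edgeR). The retinoid receptor gene RXRA had 70.7, 73.6 and 88.0 CPM in ethanol libraries and 105, 96.5 and 88.1 CPM in DMSO libraries; its log2 fold change of -0.32 did not pass the test (adjusted p 0.1855 by edgeR).

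Most of the listed cytochromes P450, the oxidising enzymes of drug and steroid metabolism, were scarce in both vehicles. Of 18 listed genes, cytochromes P450 and their reductase, 7 reached 1 TPM in the mean of the 6 libraries. POR, the reductase, stood at 333 ± 4.71 TPM in ethanol libraries and 324 ± 4.22 TPM in DMSO libraries. CYP19A1, aromatase, stood at 20.9 ± 2.32 TPM in ethanol libraries and 20.2 ± 0.81 TPM in DMSO libraries, and CYP1A1, a target of the aryl hydrocarbon receptor, at 11.6 ± 2.33 and 10.1 ± 1.24 TPM. The fetal form CYP3A7, at 7.94 ± 0.73 TPM in ethanol libraries and 7.91 ± 1.41 TPM in DMSO libraries, exceeded the adult form CYP3A4, at 0.283 ± 0.15 and 0.198 ± 0.055 TPM, although reads of these similar genes may be split. None of the 11 tested members was called, against 0.122% of all tested genes, and for 11 genes that count says little. The listed conjugating enzymes were higher, with 13 of 18 at 10 TPM or more in the mean of the 6 libraries and a median of 40.9 TPM, against 0.454 TPM for the P450 list.

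Levels of the genes of ethanol oxidation ranged widely. ALDH1A1 stood at 605 ± 33.7 TPM in ethanol libraries and 561 ± 29.8 TPM in DMSO libraries, and the glutathione-dependent formaldehyde dehydrogenase ADH5 at 300 ± 8.43 and 294 ± 3.19 TPM. ADH4 stood at 177 ± 0.74 TPM in ethanol libraries and 166 ± 7.74 TPM in DMSO libraries, ADH6 at 156 ± 0.61 and 156 ± 2.73 TPM, and the mitochondrial ALDH2 at 135 ± 3.82 and 135 ± 4.15 TPM. The class I alcohol dehydrogenases, which do most of this work in adult liver, were scarce: ADH1A stood at 1.14 ± 0.22 TPM in ethanol libraries and 0.692 ± 0.12 TPM in DMSO libraries (SD, n = 3 each), and ADH1C had 7 and 4 counts over 3 libraries of each vehicle. ADH7 had no count in any of the 6 libraries. WNT targets were well expressed in both vehicles, among them NOTUM at 591 ± 30.3 TPM in ethanol libraries and 591 ± 52.5 TPM in DMSO libraries, SP5 at 504 ± 45.8 and 494 ± 28.7 TPM, and GLUL, glutamine synthetase, at 433 ± 11.4 and 429 ± 12.4 TPM.

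**Figure D5:**
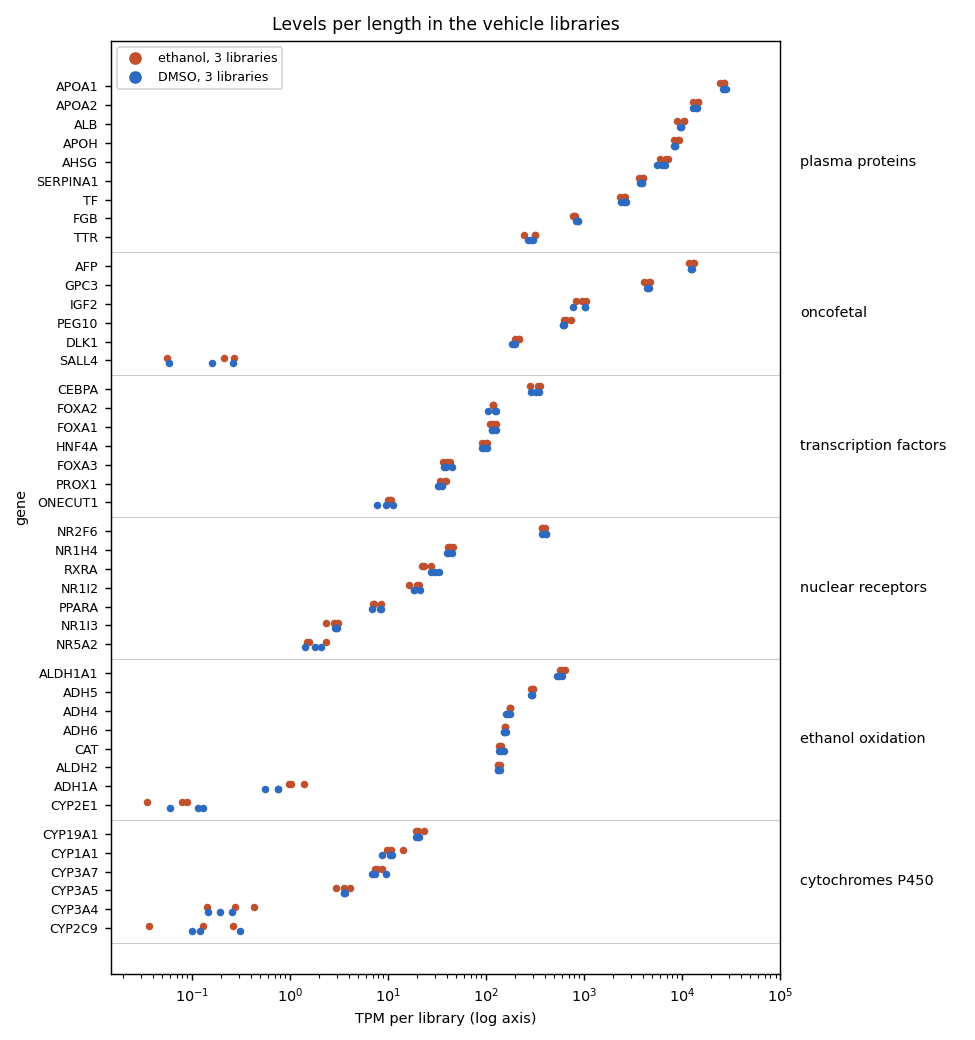
TPM per library (x axis, log scale) of named genes (y axis, grouped by the text at the right) in the 3 ethanol libraries (orange) and the 3 DMSO libraries (blue). Plasma protein genes lie mostly above 1000 TPM, nuclear receptors and cytochromes P450 mostly below 100 TPM, and the dots of both vehicles lie side by side at each gene.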

How the data were processed

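The deposited table gives raw counts of reads by gene symbol for all 18 libraries, which were made from amplified cDNA with single-end reads of 100 bases, per the labels' protocols. The submitters' processing notes name GRCh38 as the build and DESeq2 as a tool. The aligner, counter, annotation and strand setting were not given in the sources used here, so reads of overlapping or antisense genes cannot be told apart. Spreadsheet software had turned 28 symbols into dates (22 tested); these are not named.

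Genes were kept by edgeR's filterByExpr (minimum count 10, minimum total 15), which left 99.96% of counts. All 18 libraries entered 1 edgeR quasi-likelihood fit (edgeR 4.0.16, limma 3.58.1, R 4.3.3) with TMM scaling, 1 mean per group and the replicate number as a block, so that all groups share the estimate of spread. Ethanol minus DMSO was tested two-sided, with Benjamini-Hochberg adjustment over all tested genes and a threshold of 0.05. CPM are TMM-scaled. TPM use merged exon lengths of GENCODE 29 (GRCh38), which gave a position for 14199 tested genes (96.0%). Pair differences used log2(CPM + 0.5). Intervals come from the fit, and floors of 3 counts cover counting error only, since amplified reads are not independent molecules.

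The titles number the replicates and do not say whether they are separate cultures, so each p-value reflects how far these samples vary, and that variation may be technical. Same-numbered ethanol and DMSO libraries deviated together from their group means (r of 0.38, 0.42 and 0.26 across 10686 genes), and by this check the numbers pair the samples. Replicates of a vehicle differed beyond sampling noise (chi-square of 5.15 to 10.2 per gene), and none was treated as a copy.

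Both fits were run on simulated counts for this comparison (14680 genes, 50 changed genes per size). The block fit recovered 68% of 1.2-fold, 96% of 1.5-fold and 100% of 2-fold changes with 5 false calls. The fit without it recovered 24%, 90% and 100% with 0. The counts were drawn from the means and spread of the block fit, so a replicate effect was built in. An advantage of the block fit was thus fixed beforehand, and the simulation cannot show which fit suits the real libraries.

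The members and lists were chosen with earlier results of these data known. Named genes are all called genes, the 10 smallest p-values without the block, members of the lists, and the 20 highest genes per length; others were named after their values were seen. A few genes covered by these choices, including 2 of the called genes, are not reported here. Alternatives were no block, the 6 vehicle libraries alone, DESeq2 1.42.0, limma-voom, RLE size factors, no filter, a mean of at least 5 CPM, offsets by GC content, and each replicate left out.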

Additional observations from a re-analysis of the deposited data

How the results depend on the processing

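Calls depended strongly on the settings. Against 18 genes in the main fit, 0 passed without the replicate block, 1 with the block in the 6 vehicle libraries alone (RP13-1032I1.10, not among the 18) and 0 there without the block. DESeq2 called 35 genes (16 of the 18 among them), limma-voom 30 (all 18), a mean of at least 5 CPM 35 (all 18), offsets by GC content 25 (17), RLE size factors 18 and no filter 170. In the fit without a filter the prior degrees of freedom were infinite, against 10.3 in the main fit. Leaving out 1 library gave 0 to 33 calls. Without replicate 1, 2 or 3 of both vehicles the counts were 2, 0 and 37, alternatives chosen after seeing the data. The share of genes above 5 CPM over all 18 libraries with an interval within 0.5 log2 of no change was 98.7%, moved to 97.4% without the block and to 97.6% to 97.9% when 1 library was left out. Of the 20 highest genes per length, 13 stayed with median transcript lengths, and 20 stayed when any 1 library was left out. Over 21 genes (the 18 called and 3 others) and 18 alternatives, 0 fold changes reversed, 187 kept their side of the threshold, 172 lost the call and 19 gained it; the cause was not tested. Depth limits what can be said of genes near 3 counts per library, such as ADH1C, which had 7 counts over the ethanol libraries and 4 over the DMSO libraries and was not tested.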

Other observations

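Some genes that missed the threshold are given by their values. GLUD1, glutamate dehydrogenase, had 1440, 1417 and 1482 CPM in ethanol libraries and 1375, 1252 and 1319 CPM in DMSO libraries (log2 fold change 0.14, adjusted p 0.0507 by edgeR). PLIN2, a coat protein of lipid droplets, had 735, 680 and 788 CPM in ethanol libraries and 639, 624 and 721 CPM in DMSO libraries (0.15, adjusted p 0.07509). GPX2, a glutathione peroxidase, had 484, 575 and 491 CPM in ethanol libraries and 544, 657 and 547 CPM in DMSO libraries (-0.17, adjusted p 0.05543 by edgeR); each ethanol library lay below the DMSO library of its number. Of 13 tested genes of the urea cycle and ammonia handling none was called (0.122% of all tested genes were). At an unadjusted p under 0.05, 3 of them were higher (3.49% of all tested genes were). Among these was ARG1, arginase, with 24.4, 16.4 and 22.7 CPM in ethanol libraries and 18.2, 14.6 and 17.4 CPM in DMSO libraries (0.33, adjusted p 0.1816 by edgeR).

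Among genes averaging at least 5 CPM over all 18 libraries and differing by more than 1.5-fold, NICN1 was higher in ethanol without overlap, with 10.9, 8.37 and 12.8 CPM in ethanol libraries and 6.66, 5.21 and 6.44 CPM in DMSO libraries (log2 fold change 0.80, adjusted p 0.08845 by edgeR). RNF19B, a ubiquitin ligase, was lower, with 7.42, 7.91 and 10.8 CPM in ethanol libraries and 18.3, 17.0 and 11.3 CPM in DMSO libraries (-0.84, adjusted p 0.05543), and the homeobox gene MNX1 had 5.01, 5.26 and 6.68 CPM in ethanol libraries and 10.3, 8.95 and 7.95 CPM in DMSO libraries (-0.68, adjusted p 0.1816). None of the 29 tested ribosomal protein genes or 13 mitochondrial mRNAs reached an unadjusted p under 0.05, while 6.47% of all tested genes did.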
